A study of Mus musculus with 12 samples.

Results

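The vehicle-only culture was the set of 6 libraries titled DMSO-1 to DMSO-6, chosen by their titles alone, out of 12 libraries in the series. The RNA came from primary mouse adult fibroblasts, which were grown from biopsies of wild-type C57BL6/j mice, kept in high-glucose medium with 20% fetal bovine serum and given the solvent DMSO for 24 h. The other 6 libraries came from cells given 100 µM thymol, and their values enter here only where the numbering of the libraries is described. The authors' minimum of reads, which decides which genes are listed at all, could also be met through them. Nothing in the labels says that the libraries came from separate animals or cultures, so every p-value below concerns these libraries only, and differences between them may be technical. Transcripts were read from their 3′ ends, so that read numbers should not grow with transcript length. Levels are set side by side between genes on that ground, although other differences in reads per transcript were not tested. The comparison is uncertain for genes that share sequence with others, since only reads that could be given to a gene alone were counted. The extent of such sharing is described below. Levels are log2 CPM, the base-2 logarithm of counts scaled to a common library total, and the recovered reads numbered 6240828 to 8064382 per DMSO library over 10697 genes.

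Fibroblasts are the cells that make and remodel connective tissue. They secrete fibrillar collagens and proteoglycans, and in culture on a stiff surface with serum they commonly assemble contractile actin bundles, the state called the myofibroblast. Macrophages are phagocytes rich in lysosomes, which depend on the growth factor CSF1 and secrete lysozyme, apolipoprotein E and the complement component C1q. The labelled cell type was checked against both sets of markers, because biopsies hold both kinds of cell. In RNA from a whole culture, fewer cells of a type and less RNA per cell cannot be told apart.

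The markers of both cell types were among the most abundant transcripts of every library. *Lyz2*, which encodes lysozyme of macrophages, was the 4th most abundant gene in each of the 6 libraries, and *Acta2*, the smooth muscle actin of myofibroblasts, was the 6th or 7th. *Apoe* ranked 8th by its mean, *Sparc*, a collagen-binding matrix protein, 15th, and *Col1a1* and *Col1a2*, the chains of collagen I, 17th and 22nd. The labels name fibroblasts only, and 29 of 30 macrophage markers stood in the table beside 22 of 24 fibroblast markers.

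Promoter sequences are shown for 5 genes that carry this mixture, with the letters searched for in capitals. The windows run from 250 bases before to 50 bases after the annotated start, on GRCm38.p6, as RefSeq gives them. *Vim* encodes the intermediate filament of mesenchymal cells (chr2:13574061-13574360, plus strand), *S100a4* a calcium-binding protein also called fibroblast-specific protein (chr3:90603520-90603819, plus strand), *Col1a2* a collagen I chain (chr6:4505368-4505667, plus strand), *C1qb* a chain of complement C1q (chr4:136886151-136886450, minus strand) and *Lyz2* the macrophage lysozyme (chr10:117282223-117282522, minus strand). Capitals mark TATAAA (the TATA box), CCAAT (the CCAAT box) and GAGGAA (the core bound by PU.1, the factor encoded by *Spi1*), each on either strand.
Vim: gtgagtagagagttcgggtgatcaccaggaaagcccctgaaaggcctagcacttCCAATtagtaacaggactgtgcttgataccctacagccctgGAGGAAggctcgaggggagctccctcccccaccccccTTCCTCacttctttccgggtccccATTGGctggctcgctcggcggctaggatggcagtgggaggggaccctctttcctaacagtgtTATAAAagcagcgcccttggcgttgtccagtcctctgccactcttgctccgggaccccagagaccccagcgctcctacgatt
S100a4: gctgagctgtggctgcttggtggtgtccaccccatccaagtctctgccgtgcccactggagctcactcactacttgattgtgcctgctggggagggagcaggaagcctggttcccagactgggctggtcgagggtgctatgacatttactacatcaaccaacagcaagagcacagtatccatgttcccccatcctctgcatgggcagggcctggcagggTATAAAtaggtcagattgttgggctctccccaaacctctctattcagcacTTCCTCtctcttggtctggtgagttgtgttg
Col1a2: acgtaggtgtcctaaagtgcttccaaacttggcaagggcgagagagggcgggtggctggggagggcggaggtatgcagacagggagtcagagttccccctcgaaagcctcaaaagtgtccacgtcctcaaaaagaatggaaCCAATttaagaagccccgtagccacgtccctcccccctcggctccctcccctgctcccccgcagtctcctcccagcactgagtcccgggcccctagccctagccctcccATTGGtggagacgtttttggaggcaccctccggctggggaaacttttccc
C1qb: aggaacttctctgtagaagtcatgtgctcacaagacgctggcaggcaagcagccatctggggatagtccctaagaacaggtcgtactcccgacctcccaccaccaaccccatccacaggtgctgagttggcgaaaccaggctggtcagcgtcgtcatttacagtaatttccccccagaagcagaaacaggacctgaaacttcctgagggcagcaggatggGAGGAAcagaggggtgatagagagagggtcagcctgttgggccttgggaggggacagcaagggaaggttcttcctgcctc
Lyz2: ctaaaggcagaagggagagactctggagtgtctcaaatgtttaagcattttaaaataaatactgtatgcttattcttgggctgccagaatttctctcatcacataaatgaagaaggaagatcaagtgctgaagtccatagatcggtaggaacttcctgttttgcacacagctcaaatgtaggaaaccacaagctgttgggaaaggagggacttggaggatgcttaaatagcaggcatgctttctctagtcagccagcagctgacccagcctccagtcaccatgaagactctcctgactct

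*Vim* and *S100a4* held TATAAA beginning 32 and 31 bases before the start, and *C1qb* held GAGGAA beginning 30 bases before it. *Lyz2* held none of the searched letters in this window. Among the 100 most abundant genes, 73 had a promoter in the table of windows, and 23.6% of their 89 windows held TATAAA, against 6.94% of the 10983 windows of all measured genes and 13.6% of all 32851 windows. GAGGAA was found in 68.0% of the 25 windows of 20 macrophage markers and in 43.8% of the 16 windows of 14 fibroblast markers, against 26.6% for all measured genes and 28.3% for all windows. CCAAT was found in 33.7% of the windows of the 100 most abundant genes and in 37.3% of those of all measured genes. These are counts of letters in a window and do not show binding. *Col1a1*, *C1qa* and *Csf1r* were among the markers that had no entry.

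Reads were concentrated in few genes. The 10 most abundant genes held 10.9% ± 0.366 of the reads, the 30 most abundant 18.8% ± 0.397, the 100 most abundant 28.4% ± 0.360 and the 1000 most abundant 59.0% ± 0.373 (SD, n = 6). Between 564 and 600 genes were enough to hold 50% of the reads of a library. The median gene had a mean of 5.02, while *mt-Nd4* led the ranking in all 6 libraries. By gene type, protein-coding genes took 96.2% ± 0.0971 of the reads and long intergenic RNAs 1.83% ± 0.0985 (SD, n = 6), most of which was *Malat1* at 1.45% of the reads.

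*mt-Nd4*, a mitochondrially encoded subunit of respiratory complex I (mitochondrial genome, 10167 to 11544), had a lowest value of 13.87, a median of 14.11 and a highest of 14.36. It averaged 14.11 ± 0.21 and held 1.79% of the reads. *Malat1*, a nuclear long noncoding RNA (chromosome 19, 5795690 to 5802672), ranged from 13.67 to 13.95 with a median of 13.85, and *Actb*, cytoplasmic beta-actin (chromosome 5, 142903115 to 142906754), from 13.72 to 13.87 with a median of 13.80. The last 2 exchanged ranks between libraries, and their ranges overlapped. *Lyz2* (chromosome 10, 117277331 to 117282321) ranged from 13.56 to 13.72 with a median of 13.60, and its range met neither that of *Actb* above it nor that of *S100a6* below it. *S100a6*, a calcium-binding protein of cycling mesenchymal cells, ranged from 13.28 to 13.39 with a median of 13.36.

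*Acta2* (chromosome 19, 34241090 to 34255590) had values from 13.08 to 13.27 with a median of 13.21, which overlapped those of *mt-Cytb*, cytochrome b, from 12.88 to 13.15. *Apoe* (chromosome 7, 19696109 to 19699188) ranged from 12.90 to 13.03, and *Fth1*, the heavy chain of the iron store ferritin, from 12.75 to 12.97. *Tmsb4x*, an actin-sequestering peptide, averaged 12.68 ± 0.11, and the complex I subunits *mt-Nd2* and *mt-Nd1* averaged 12.59 ± 0.16 and 12.58 ± 0.05. *Ccn2*, connective tissue growth factor, averaged 12.53 ± 0.13, *Ctsd*, the lysosomal protease cathepsin D, 12.36 ± 0.07, and *Sparc* 12.32 ± 0.03. *Timp2* and *Timp3*, inhibitors of matrix metalloproteinases, averaged 12.21 ± 0.08 and 11.79 ± 0.06 (SD, n = 6 for each value). The order was mostly not sharp: for 25 of the 29 neighbouring pairs in the first 30 ranks the ranges over libraries overlapped. The exceptions were the steps on both sides of *Lyz2*, from *S100a6* to *Acta2* and from *Timp2* to *Col1a1*.

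Other genes of the first 30 were *Cald1*, *Cd63*, *Actn1*, *Ccnd2*, *Tpm1*, *Hsp90ab1*, *Lgals1*, *Vim*, *S100a4* and *Ctsb*, with the collagen I chains between them. *Cald1*, *Actn1* and *Tpm1* encode proteins of contractile actin bundles, at 11.95 ± 0.11, 11.68 ± 0.04 and 11.56 ± 0.05. *Cd63* marks late endosomes and lysosomes (11.87 ± 0.07) and *Ctsb* is cathepsin B (11.34 ± 0.04). *Ccnd2*, cyclin D2, stood at 11.60 ± 0.04, the chaperone *Hsp90ab1* at 11.51 ± 0.09, galectin 1 (*Lgals1*) at 11.43 ± 0.08, *Vim* at 11.38 ± 0.07 and *S100a4* at 11.34 ± 0.08 (SD, n = 6 for each). In all, 26 genes were among the 30 highest of every library and 34 among the 30 highest of any library.

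**Figure D1:**
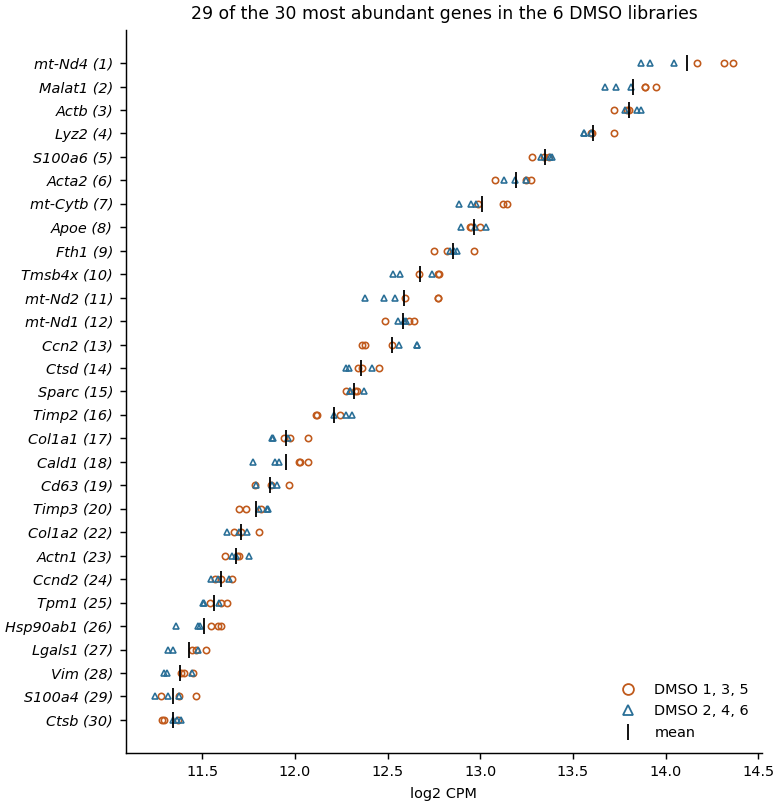
Level of 29 of the 30 most abundant genes (log2 CPM, horizontal axis; rank by mean in parentheses) in each DMSO library, with circles for libraries 1, 3 and 5, triangles for libraries 2, 4 and 6 and a bar for the mean. mt-Nd4 leads in every library, between 13.87 and 14.36, and its circles lie above its triangles.

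Among the functional groups as measured, actin and its partners held the largest share of the reads. The 38 listed genes of the actin cytoskeleton, all in the table, held 6.15% ± 0.114 of the reads (SD, n = 6), and 32 of them were among the highest 10% of all genes. The 7 measured of 13 mitochondrially encoded proteins held 4.03% ± 0.363, with the largest SD of any group share. The 6 not in the table add nothing to this share, so the order of this group and actin holds for measured genes only. The 46 lysosomal hydrolases and membrane proteins, again all in the table, held 2.46% ± 0.0497, with *Ctsd*, *Cd63*, *Ctsb*, *Lamp1* (10.56 ± 0.05) and the progranulin gene *Grn* (10.35 ± 0.08) in front. The 18 measured of 19 subunits of the V-ATPase, the pump that acidifies lysosomes, held 0.451% ± 0.0147, led by *Atp6ap1* at 9.50 ± 0.13.

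S100 proteins, annexins and galectins, which bind calcium, membranes or sugars, held 2.28% ± 0.0406 of the reads with 20 of 21 genes measured, and *S100a6* alone gave 1.04%. Adhesive and matricellular proteins held 2.22% ± 0.115. In this group *Ccn2* and *Sparc* were followed by *Thbs1*, thrombospondin 1 (11.31 ± 0.08), *Spp1*, osteopontin (11.28 ± 0.19), *Tnc*, tenascin C (10.24 ± 0.08) and *Fn1*, fibronectin (10.13 ± 0.07). Matrix proteases and their inhibitors held 1.58% ± 0.0554, and the inhibitors stood far above the proteases: *Timp1* was at 10.65 ± 0.09, against 9.09 ± 0.15 for the membrane protease *Mmp14* and 8.65 ± 0.15 for the macrophage elastase *Mmp12*. Every library of *Timp1*, *Timp2* and *Timp3* lay above every library of these proteases.

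Fibrillar collagens held 0.951% ± 0.0369 of the reads, with 8 of 11 measured. *Col5a2* (9.97 ± 0.09), *Col5a1* (9.12 ± 0.09) and *Col3a1* (8.88 ± 0.09) followed the collagen I chains, and *Col2a1*, the collagen of cartilage, was among the 3 not in the table. Of 20 other collagens 12 were measured, led by the basement membrane chains *Col4a1* (9.62 ± 0.04) and *Col4a2* (8.79 ± 0.06). All 20 genes of collagen folding and crosslinking were measured, with lysyl oxidase (*Lox*, 10.70 ± 0.05) and the collagen chaperone *Serpinh1* (9.28 ± 0.10) in front. The mean of this list spread least between libraries of the lists named here, 7.22 ± 0.014 (SD, n = 6).

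Among housekeeping groups, 76 of 77 nuclear-encoded subunits of the respiratory chain held 1.12% ± 0.0146 of the reads, led by *Atp5mc3* at 9.51 ± 0.05. Translation factors held 0.944% ± 0.0157, ER chaperones and stress sensors 0.861% ± 0.00979, cytosolic chaperones 0.740% ± 0.0247 and the 31 proteasome subunits 0.573% ± 0.0117. *Hspa5*, the main chaperone of the endoplasmic reticulum, was at 10.61 ± 0.06. Iron handling held 1.02% ± 0.0391, of which *Fth1* gave 0.740%. Glycolysis held 0.315% ± 0.0120 without *Gapdh*, which was not in the table, and was led by *Pkm* (9.96 ± 0.08) and *Aldoa* (9.73 ± 0.12). Sterol synthesis held 0.199% ± 0.00630, with the sterol oxidase gene *Msmo1* among the highest, and the autophagy machinery 0.316% ± 0.00332, led by *Sqstm1* at 8.84 ± 0.06. Antioxidant genes were led by *Prdx1* at 10.39 ± 0.05.

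**Figure D2:**
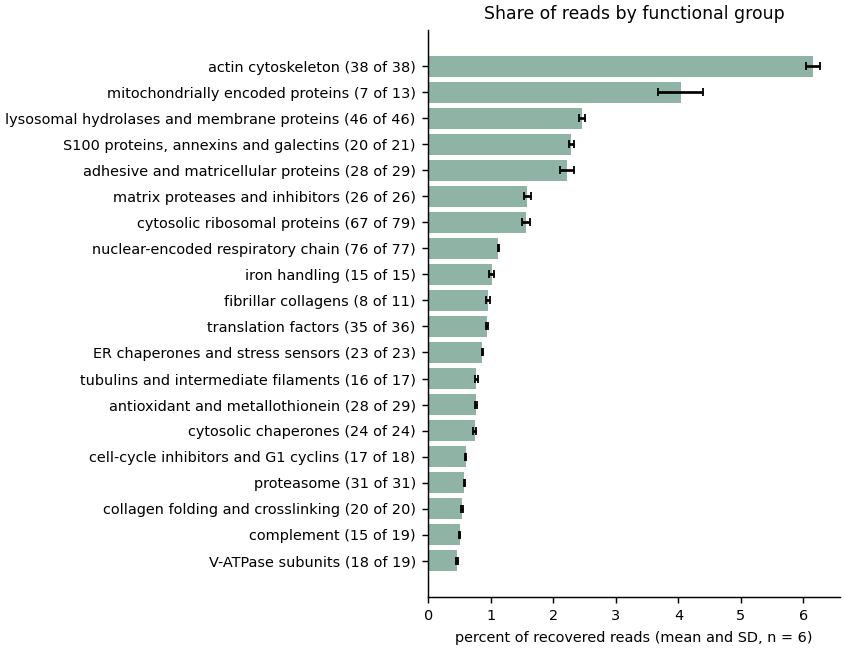
Share of the recovered reads (percent, horizontal axis) held by the 20 functional groups with the largest shares, as the mean over 6 DMSO libraries with the SD as error bar and the number of measured of listed genes in parentheses. A gene may stand in more than 1 group. Among measured genes the actin cytoskeleton leads with 6.15%, ahead of the mitochondrially encoded proteins with 4.03%, of which 7 of 13 were measured.

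Cytosolic ribosomal proteins held 1.56% ± 0.0589 of the reads, with 67 of 79 genes measured. Although the ribosome holds these proteins in nearly equal number, their measured levels ran from 10.57 ± 0.08 for *Rplp1* to 1.66 ± 1.02 for *Rpl36*. *Rps6*, *Rps27*, *Rpl24* and *Rpl28* were among the 12 not in the table. A level here counts only reads that could be given to 1 gene, and many ribosomal genes have near-identical copies. Of the 24 ribosomal genes whose last 300 bases share no 50-base stretch with another gene, 22 were in the table, at a median of 7.0. Of the 17 that share up to 50%, 16 were in the table, at a median of 6.61. Of the 34 that share more than 50% but not all such stretches, 27 were measured, at a median of 5.63, and of the 4 that share all of them 2, at a median of 3.52. Single levels did not follow this order. *Rplp1*, the highest at 10.57, was among those sharing more than 50%, and the genes sharing none ran from 2.87 to 10.06.

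The medians thus fell with the share, while the part of genes in the table was about as high with up to 50% shared as with none. Over all protein-coding genes, 52.4% of the 18509 genes with no shared stretch were in the table, 28.1% of those sharing up to 50%, 94 of the 786 genes sharing more and 2.9% of the 828 that share all of them. *Gapdh*, a common reference gene, shares 82.9% of its stretches with 98 other genes and was not in the table. *mt-Co2*, *mt-Co3* and *mt-Atp6*, which have nuclear copies, share 100%, 99.6% and 98.8% and were likewise not in the table, while *mt-Nd4*, *mt-Cytb* and *mt-Nd1* share none. The levels of *Rpl10* (2.06 ± 0.29, all stretches shared) and of *Eef1a1* (6.25, all stretches shared in at least 1 of its transcripts) are therefore uncertain. *Lyz2* shares 21.9% with 1 gene, *Lyz1*, which was at 4.41. *Acta2*, *Apoe*, *Sparc*, *Col1a1*, *Col1a2* and *C1qa* share none. The part that shared sequence played in any single level was not tested.

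The fibroblast program was led by collagen I. *Col1a1* (chromosome 11, 94936224 to 94953042, plus strand) measured 11.94, 11.96, 11.97, 11.88, 12.07 and 11.88 in libraries 1 to 6. *Col1a2* (chromosome 6, 4504814 to 4541544, plus strand) measured 11.71, 11.74, 11.67, 11.64, 11.81 and 11.70 in the same order. Library 5 was the highest and library 4 the lowest for both chains. *Bgn*, the proteoglycan biglycan (chromosome X, 73483602 to 73495933), measured 11.40, 11.34, 11.38, 11.27, 11.31 and 11.34, and *Dcn*, decorin (chromosome 10, 97479609 to 97518143), 8.41, 8.31, 8.30, 8.46, 8.47 and 8.49. Both small leucine-rich proteoglycans were thus present in every library, with *Bgn* above *Dcn* in each.

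Of the 24 fibroblast markers 22 were in the table, at a median of 8.10, and *Lum* and *Fap* were not. Their mean per library ranged from 7.98 to 8.10 and averaged 8.03 ± 0.045, and together they held 1.60% ± 0.0463 of the reads (SD, n = 6). Above the median gene stood 19 of the 22, and 15 were in the highest 10% of all genes. After collagen I and *Bgn* came *Fn1*, *Col5a2* and *Serpinh1*. *Thy1*, a surface marker of fibroblasts, was at 8.29 ± 0.09, and *Prrx1*, a mesenchymal transcription factor, at 7.77 ± 0.08. The lowest markers were *Dpt*, dermatopontin (3.69 ± 0.49, between 3.27 and 4.53), *Pdgfra*, the PDGF receptor alpha (4.40 ± 0.16, between 4.23 and 4.64), and *Postn*, periostin (4.55 ± 0.49, between 4.00 and 5.29). *Pdgfrb*, the beta receptor, was higher than *Pdgfra* in all 6 libraries, at 6.55 ± 0.12.

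The myofibroblast list was measured whole. Its 12 genes had a median of 9.23 and held 1.77% ± 0.0673 of the reads (SD, n = 6), most of it *Acta2*. *Tpm1* and *Tpm2*, tropomyosins, averaged 11.56 and 10.24, *Tagln*, transgelin, 9.98 ± 0.14, *Myl9*, a myosin light chain, 9.32 ± 0.12, and *Cnn1*, calponin, 9.15 ± 0.09. Its lowest members were *Lrrc15* (4.88 ± 0.21), *Postn* and *Cthrc1* (3.27 ± 0.37). Of the 12 genes listed for universal fibroblasts, a resting type of many tissues, 6 were in the table at a median of 4.83, and *Pi16*, *Dpp4*, *Cd34* and *Clec3b* were not. Of 8 tendon fibroblast genes 3 were in the table, at a median of 3.46, and *Scx* and *Tnmd*, the defining tendon genes, were not.

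Fibroblasts keep a transcriptional memory of where in the body they came from, and this was read from the Hox genes and other position factors. Of 39 Hox genes 16 were in the table. The highest were *Hoxa5* (6.58 ± 0.11), *Hoxb4* (6.04 ± 0.08), *Hoxb3* (5.60 ± 0.19) and *Hoxb5* (5.43 ± 0.16), and *Hoxb9* was at 4.31 ± 0.22. Every measured Hox gene belonged to groups 2 to 9, and no member of groups 10 to 13 was in the table. The HoxC genes were near the lower end, from 1.90 ± 0.57 for *Hoxc5* to 2.52 ± 0.46 for *Hoxc4*, and no HoxD gene was in the table. Of 22 limb and skin position factors 8 were in the table at a median of 3.29, with *En1* (4.35 ± 0.25), *Tbx5*, a forelimb factor (4.28 ± 0.40), *Pax3* (4.21 ± 0.30) and *Shox2* (4.12 ± 0.27) highest, while the hindlimb factor *Pitx1* was not. Among fibroblast transcription factors 13 of 17 were measured, led by *Tcf4* (8.58 ± 0.05), *Nfix* (8.53 ± 0.05) and *Tead1* (8.39 ± 0.15).

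The macrophage markers held more reads than the fibroblast markers, an order that rests on *Lyz2* and *Apoe* and on the choice of lists. *Lyz2* measured 13.72 in library 1 and between 13.56 and 13.60 in the other 5. *Apoe* was lowest in library 4 at 12.90 and highest in library 2 at 13.03. *C1qa* (chromosome 4, 136895917 to 136898803, minus strand) measured 10.55, 10.49, 10.50, 10.40, 10.52 and 10.42 in libraries 1 to 6, and *C1qb* and *C1qc*, its partner chains, averaged 10.06 ± 0.09 and 9.74 ± 0.04. *C1qb* was highest in library 1 at 10.24 and lowest in library 5 at 9.97, while *C1qc* stayed between 9.70 and 9.79.

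Of the 30 macrophage markers 29 were in the table, at a median of 7.84, and *Cd163* was not. Their mean per library ranged from 8.07 to 8.17 and averaged 8.14 ± 0.036 (SD, n = 6), and 20 were in the highest 10% of all genes. They held 3.04% ± 0.0571 of the reads, 2.24% ± 0.0582 without *Apoe* and 0.995% ± 0.0196 without *Lyz2* and *Apoe*, which is below the 1.60% of the fibroblast markers. The 33 genes of the fibroblast and myofibroblast lists together held 3.37% ± 0.0871, more than the macrophage markers in 6 of 6 libraries. The share of the macrophage markers was 1.90 ± 0.0746 times that of the fibroblast markers, between 1.78 and 2.02 in single libraries, and it was the higher share in 6 of 6. The ratio compares 2 lists and is no ratio of cells. After *Lyz2*, *Apoe* and *C1qa* the highest markers were *Ctss*, cathepsin S (10.09 ± 0.03), *C1qb* and *C1qc*. *Csf1r*, the receptor of CSF1, was at 9.02 ± 0.12, *Cd68* at 8.80 ± 0.09, *Itgam* (CD11b) at 8.05 ± 0.07, *Adgre1* (F4/80) at 7.61 ± 0.16, *Ptprc* (CD45) at 7.29 ± 0.16 and *Spi1* (PU.1) at 7.47 ± 0.11. Among the lowest was the Fc receptor *Fcgr1* (4.14 ± 0.37).

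**Figure D3:**
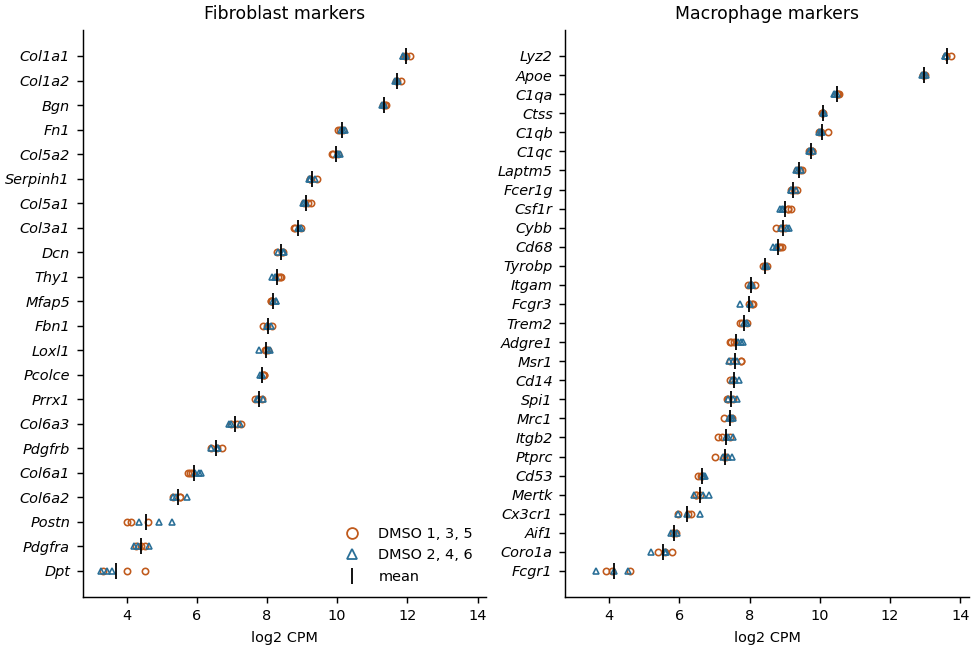
Level of the 22 measured fibroblast markers (left) and of 28 of the 29 measured macrophage markers (right) in the 6 DMSO libraries (log2 CPM, horizontal axis), with circles for libraries 1, 3 and 5, triangles for libraries 2, 4 and 6 and a bar for the mean. Both sets span from about the level of the most abundant genes, 11.95 for Col1a1 and 13.61 for Lyz2, down to 3.69 for Dpt and 4.14 for Fcgr1.

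Among macrophage subtypes, the genes of lipid-associated macrophages were measured whole, 12 of 12 at a median of 8.14, with 1.47% ± 0.0626 of the reads (SD, n = 6). *Ctsd*, *Ctsb* and *Spp1* were followed by *Gpnmb* (10.92 ± 0.13), *Lgals3*, galectin 3 (10.33 ± 0.04), the lipase gene *Lpl* (8.35 ± 0.14), the lipid droplet protein *Plin2* (7.92 ± 0.09) and the lipid sensor *Trem2* (7.84 ± 0.08). Fibroblasts also express several of these genes, such as the cathepsins, *Lgals3* and *Spp1*. Of 10 genes of tissue-resident macrophages 6 were measured at a median of 6.19, with *Lyve1*, *Timd4*, *Cd163* and *Vsig4* not in the table. Of 10 monocyte genes 5 were measured, led by *S100a4* and *Plac8* (8.03 ± 0.10), while *Ccr2* and *Ly6c2*, the defining receptor and surface protein of classical monocytes, were not in the table. *S100a4*, named above as fibroblast-specific protein, gave 0.260% of the reads, most of the 0.293% of this list. Which cells it came from was not tested. Of 10 osteoclast genes 6 were measured at a median of 4.66, *Ctsk* being highest at 5.99 ± 0.20.

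Of 12 genes of alternative activation 5 were measured, *Tgm2* (8.77 ± 0.10), *Mrc1* (7.43 ± 0.08), *Arg1* (4.01 ± 0.33), *Chil3* (3.15 ± 0.32) and *Mgl2* (2.32 ± 0.66). Of 12 genes of inflammatory activation 5 were measured, the prostaglandin synthase *Ptgs2* at 9.08 ± 0.14, *Irf5* at 4.89 ± 0.19, *Tnf* at 4.38 ± 0.17, *Il6* at 4.27 ± 0.19 and *Cd80* at 3.58 ± 0.34, while *Nos2*, *Il1b* and *Cxcl10* were not. Of these 5 only *Ptgs2* stood above the median gene. Which cells gave the transcripts of either activation list was not tested. Of 16 macrophage transcription factors 15 were measured, led by *Maf* (9.05 ± 0.07) and *Id2* (8.37 ± 0.08). Of the 10 genes of MHC class II presentation 3 were measured, at a median of 3.64, and *Cd74* and *H2-Aa* were not, whereas class I presentation was led by *B2m* (11.28 ± 0.08), *H2-D1* (9.62 ± 0.07) and *H2-K1* (8.88 ± 0.07). Complement genes numbered 15 of 19, and behind C1q stood the receptor *C3ar1* at 9.24 ± 0.10. Among 16 measured chemokines of 25, *Ccl6* (9.10 ± 0.16), *Cxcl12* (8.06 ± 0.15), *Pf4* (between 7.62 and 8.52), *Cxcl16* (7.35 ± 0.12) and *Ccl9* (7.32 ± 0.12) were highest. Of 36 interferon-stimulated genes 20 were measured at a median of 3.87, with *Ifitm3* (9.84 ± 0.12) well above the rest.

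Markers of other cell types were sparse. Over 12 further lists, 23 of 120 markers were in the table, and 11 of the lists had at most 2. Endothelial *Pecam1* and *Kdr*, epithelial *Epcam* and *Krt5*, T cell *Cd3e*, mast cell *Kit*, adipocyte *Adipoq*, Schwann cell *Sox10* and muscle *Myod1* were not in the table. Some measured members of these lists stood above the median gene, namely *Pmp22* (between 7.33 and 7.65) and *Mbp* (5.08 ± 0.25) of the Schwann cell list, *Acta1* of skeletal muscle (7.11 ± 0.10), *Fabp4* of adipocytes (6.38 ± 0.11) and *Sox9* of cartilage and bone (5.55 ± 0.22). The other measured members were lower, from *Vwf* of endothelium (1.78 ± 0.52) to *Itgax* of dendritic cells (4.80 ± 0.21). The list of smooth muscle and pericytes was the exception with 7 of 10, namely *Acta2*, *Tagln*, *Cnn1*, *Myh11* (7.57 ± 0.12), *Mcam* (5.94 ± 0.14), *Cspg4* (3.73 ± 0.38) and *Des* (3.02 ± 0.43), and it shares *Acta2*, *Tagln* and *Cnn1* with the myofibroblast list. *Rgs5*, *Notch3* and *Kcnj8*, which mark pericytes, were not in the table. Absence from the table means that a gene did not pass the authors' minimum of reads or had no annotation, not that it had no reads. The minimum could be met in libraries of either group, so presence does not mean that the DMSO libraries alone would have passed it. *Hoxc5*, which is in the table, had 9 to 37 reads in the DMSO libraries. *Xist*, the RNA of the inactive X chromosome, was between 9.05 and 9.21 in all 6 libraries, and 0 of 4 Y-linked genes looked for were in the table. The paper states that all its mice were male. How these values relate to that statement was not tested.

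Proliferation genes stood mostly below the median gene, with 12 of 41 DNA replication genes and 16 of 38 mitosis genes above it. All 41 DNA replication genes were measured at a median of 4.47, led by *Lig1* (7.03 ± 0.14) and *Rrm1* (6.66 ± 0.07), and all 38 mitosis genes at a median of 4.55, led by *Top2a* (7.40 ± 0.06), *Bub3* (7.36 ± 0.06) and *Cdk1* (6.63 ± 0.09). The cell-cycle inhibitor *Cdkn1a* (p21) stood at 9.75 ± 0.09 and *Cdkn2a*, the locus of p16 and p19, at 7.74 ± 0.13. Of the 26 genes of the AP-1 and immediate early list 23 were measured at a median of 5.63, led by *Klf6* (8.73 ± 0.08) and *Ier3* (8.40 ± 0.12).

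Ligands and receptors that join fibroblasts and macrophages were read as pairs, with no test. Of 28 pairs 23 had both members in the table. The macrophage growth factor *Csf1* (10.42 ± 0.09) and its receptor *Csf1r* (9.02 ± 0.12) were both high, whereas *Il34*, the other ligand of that receptor, was at 1.99 ± 0.76. *Spp1* was paired with its receptor *Cd44* at 9.64 ± 0.07, *Apoe* with *Lrp1* at 9.40 ± 0.06, and *Gas6* (8.22 ± 0.11), a bridge to dying cells, with the receptor *Axl* at 9.56 ± 0.04. *Igf1* (9.29 ± 0.06) was above *Igf1r* (8.68 ± 0.12) in every library. *Pros1* (6.45 ± 0.14) and *Mertk* (6.58 ± 0.16) were of similar level, as were *Tgfb2* (6.67 ± 0.12) and *Tgfbr2* (6.61 ± 0.21).

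Other pairs were uneven. *C3ar1* (9.24 ± 0.10) stood far above its ligand precursor *C3* (4.80 ± 0.15), and *Sirpa* (9.19 ± 0.05), which reads the signal against engulfment, above *Cd47* (7.47 ± 0.10). *Pdgfa* (7.07 ± 0.14) was above *Pdgfra* (4.40 ± 0.16), and *Pdgfc* was at 4.22 ± 0.23, while *Pdgfb* (4.78 ± 0.27) was below *Pdgfrb* (6.55 ± 0.12). *Il6* (4.27 ± 0.19) and *Tnf* (4.38 ± 0.17) were below *Il6st* (7.34 ± 0.07) and *Tnfrsf1a* (7.09 ± 0.11). *Cxcl12* was above *Cxcr4* (6.11 ± 0.31) and *Ccl7* (6.66 ± 0.20) above *Ccr1* (3.84 ± 0.25), while *Ccl2* (7.02 ± 0.10) had no *Ccr2* in the table. *Fn1*, *Col1a1* and *Thbs1* were above *Itga5* (6.56 ± 0.25), *Ddr2* (8.18 ± 0.04) and *Cd36* (5.22 ± 0.26). *Tgfb3* (7.35 ± 0.09) was above *Tgfbr1* (5.14 ± 0.19), *Tgfb1* (4.94 ± 0.17) below *Tgfbr2*, and *Vegfa* (6.46 ± 0.09) below *Nrp1* (8.06 ± 0.11). Of the pairs with an unmeasured ligand, *Osmr* was at 5.58 ± 0.18, *Tnfrsf11a* at 4.60 ± 0.18, *Il1r1* at 3.77 ± 0.34 and *Met* at 2.99 ± 0.31 (SD, n = 6 for each value).

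The spread between libraries was small for abundant genes. The median SD was 0.196 over all genes, 0.70 for the 123 genes below 2 and 0.069 for the 88 genes at 10 or above. Set against the error of counting reads alone, 8690 of 10697 genes (81.2%) varied more than their read numbers explain (chi-square test per gene with 5 degrees of freedom on the recovered reads, Benjamini-Hochberg adjusted over all genes, threshold 0.05). The median spread beyond counting was 11.5% of the mean. Of the fibroblast markers 20 of 22 and of the macrophage markers 27 of 29 passed this test, beside the 81.2% of all genes, and all 88 genes at 10 or above did. The test knows counting error only, and reads that are PCR copies also raise it.

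Among genes with a mean of at least 5, the 10 with the largest SD were *Bin2*, *Igsf6*, *Nop56*, *Senp3*, *Gsr*, *Slco4a1*, *Sh2b3*, *Flvcr1*, *Adam9* and *Mbtd1*. *Bin2*, a membrane-bending protein of blood cells, measured 6.69, 6.11, 6.77, 5.74, 6.65 and 6.04 in libraries 1 to 6 (SD 0.43), so that libraries 1, 3 and 5 were all above libraries 2, 4 and 6. *Adam9*, a membrane protease, measured 5.96, 6.53, 6.05, 6.60, 5.82 and 6.71 (SD 0.38), with the opposite order and again no overlap. *Igsf6* likewise had libraries 1, 3 and 5 (5.70 to 6.15) above libraries 2, 4 and 6 (4.96 to 5.54). In 4 of the other genes 1 library stood apart. *Gsr*, glutathione reductase, was at 5.83 in library 2 and at most 5.02 elsewhere, *Senp3* at 4.32 in library 5 and at least 5.10 elsewhere, *Sh2b3* at 4.33 in library 4 and at least 5.18 elsewhere, and *Flvcr1*, a heme exporter, at 4.74 in library 1 and at least 5.26 elsewhere.

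Among the 10 with the smallest SD were *Pttg1ip*, *Clint1*, *Eif4g1*, *Ghitm*, *Prrc2b*, *Hdgf*, *Tnrc6a*, *Canx* and *Arpc4*, and the SDs of the 10 ran from 0.018 to 0.026. *Eif4g1*, a scaffold of translation initiation, lay between 9.46 and 9.51. Of the usual reference genes, *Actb* had an SD of 0.050 and *B2m* of 0.083, both larger than these.

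**Figure D4:**
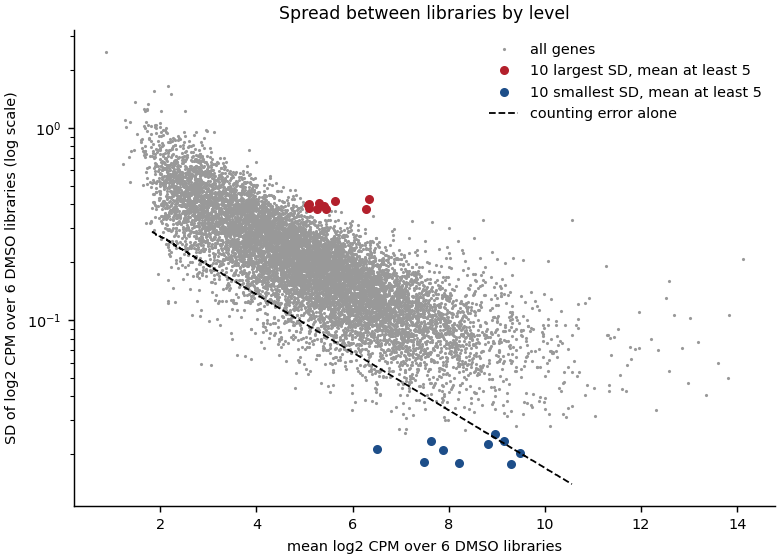
SD of each gene over the 6 DMSO libraries (vertical axis, log scale, log2 units) against its mean level (log2 CPM). Red and blue points are the 10 genes with the largest and the smallest SD among those with a mean of at least 5, and the dashed line is the SD that read numbers alone would give. The spread falls with level, from a median of 0.70 below 2 to 0.069 at 10 or above.

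The libraries resembled each other closely. Pearson correlations over all genes, which are not independent replicates, ranged from 0.980 to 0.983 between odd-numbered libraries, from 0.969 to 0.974 between even-numbered ones and from 0.971 to 0.978 between the 2 kinds. The first principal component of the 5390 genes with a mean of at least 5 held 32.0% of the variance, and its scores were 5.53, 5.87 and 3.58 for libraries 1, 3 and 5 and -0.15, -10.30 and -4.53 for libraries 2, 4 and 6. The second held 20.5%, with libraries 2 and 6 at one end (-4.67 and -7.58) and library 4 at the other (6.31). The odd-numbered libraries thus lay together, while the even-numbered ones also lay apart from each other.

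The means of the fibroblast and macrophage markers were compared across the 6 libraries, to see whether the mixture moved. Pearson's r was -0.738 (exact two-sided permutation test over pairings, p = 0.104) and Spearman's rho -0.60 (exact permutation p = 0.242), neither past 0.05. This was the only relation computed, so adjustment over 1 relation leaves these p-values as they are. Without the 2 libraries farthest from the median fibroblast mean, r was 0.745 over the other 4 (exact permutation p = 0.25), and without library 5 alone, the highest in fibroblast markers and the lowest in macrophage markers, it was 0.0745 (exact permutation p = 0.917). Without library 3 it was -0.937 (exact permutation p = 0.025). The relation rests on library 5. Among the odd-numbered and among the even-numbered libraries 3 values each are too few for a correlation.

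Odd- and even-numbered libraries were then compared gene by gene, since library names in the labels run in 2 blocks that follow the odd and even numbers. The labels do not say what the blocks are, and earlier results of these data had shown the split, so the comparison describes the spread and is no contrast of conditions. In limma, 53 of 10697 genes (0.495%) were past the adjusted threshold of 0.05, 43 of them (0.402% of all genes) higher in odd-numbered libraries and 10 (0.0935%) lower. The values of the 2 sets did not overlap for any of the 53, and for 14.6% of all genes. Without the trend of variance with level limma called 0 genes. Unadjusted p-values lay under 0.05 for 838 genes in that fit and for 1049 with the trend, and voom on the recovered reads called 78. The count was 28, 107, 24, 26, 63 and 25 when libraries 1 to 6 were left out in turn.

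The genes higher in odd-numbered libraries included *Bin2*, with a difference of 0.74 ± 0.11 (SE, limma adjusted p = 1.5e-05), and *mt-Nd4*, the most abundant gene. *mt-Nd4* measured 14.32, 14.36 and 14.17 in libraries 1, 3 and 5 and 14.04, 13.91 and 13.87 in libraries 2, 4 and 6, a difference of 0.34 ± 0.043 (SE, limma adjusted p = 4.7e-07). *Sparcl1*, a matrix protein with a mean of 76.7 reads, differed by 1.41 ± 0.34 (limma adjusted p = 0.031), *Trim37*, a ubiquitin ligase, by 0.74 ± 0.19 (adjusted p = 0.046), *Eif2s3x*, a subunit of an initiation factor, by 0.63 ± 0.13 (adjusted p = 0.0036) and *Igsf6* by 0.60 ± 0.14 (adjusted p = 0.026). *Bin2* passed in all 6 fits that left out 1 library. *Sparcl1* no longer passed without library 1 (1.54), 3 (0.94), 4 (1.31) or 6 (1.34), *Trim37* without library 1 (0.67), 2 (0.60), 3 (0.83), 5 (0.72) or 6 (0.69), *Eif2s3x* without library 1 (0.60) or 6 (0.56) and *Igsf6* without library 1 (0.59), 3 (0.49) or 4 (0.42).

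Lower in odd-numbered libraries were *Adam9* by -0.67 ± 0.11 (SE, limma adjusted p = 9.6e-05), *Stox2* by -0.47 ± 0.12 (adjusted p = 0.044), *Fcho2*, an endocytic protein, by -0.47 ± 0.11 (adjusted p = 0.031), *F3*, tissue factor, by -0.39 ± 0.069 (adjusted p = 0.00054) and *Pfn1*, profilin 1, by -0.39 ± 0.077 (adjusted p = 0.0031). *Adam9* and *F3* passed in all 6 fits that left out 1 library. *Stox2* no longer passed without library 1 (-0.43), 3 (-0.45), 4 (-0.47) or 6 (-0.40), *Fcho2* without library 1 (-0.41), 3 (-0.47), 4 (-0.49) or 6 (-0.41) and *Pfn1* without library 3 (-0.26). By group, 4 of 67 ribosomal proteins (*Rpl4*, *Rpl26*, *Rps19* and *Rps15a*) and 2 of 7 mitochondrially encoded genes (*mt-Nd4* and *mt-Nd2*) were higher in odd-numbered libraries, beside 0.402% of all genes. Each of these ribosomal and mitochondrial genes had a mean of at least 8.01. The share called among genes of like level was not computed, so the counts are not read as traits of these groups. Of these genes *Rpl4* and *mt-Nd4* passed whichever library was left out. After quantile normalization *mt-Nd4* showed no difference (limma adjusted p = 1), since that method gives the gene ranked first in every library the same value, and *Rps15a* did not pass (0.24, limma adjusted p = 0.077). *mt-Nd2* no longer passed without library 6 (0.20), *Rpl26* without library 1 (0.30) or 4 (0.25), *Rps19* without library 3 (0.28), 4 (0.32) or 6 (0.30) and *Rps15a* without library 1 (0.22), 3 (0.24), 4 (0.22) or 6 (0.24). Of the actin cytoskeleton 2 genes were higher (*Cald1* and *Arpc1b*) and 2 lower (*Tagln* and *Pfn1*). *Arpc1b*, a subunit of the Arp2/3 complex that branches actin filaments, had the smallest adjusted p-value of all genes. It measured 10.86, 10.98 and 10.68 in libraries 1, 3 and 5 and 10.45, 10.18 and 10.22 in libraries 2, 4 and 6, a difference of 0.56 ± 0.058 (SE, limma adjusted p = 2.6e-09), and passed whichever library was left out. *Cald1* no longer passed without library 1 (0.16), 3 (0.19), 4 (0.13) or 6 (0.20), and *Tagln* passed only when library 2 was left out. None of the 22 fibroblast and none of the 29 macrophage markers passed, and the median difference was 0.011 and -0.0011 for these lists and 0.0003 for all genes.

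In the 6 thymol libraries, numbered alike and not used for the above, limma called 0 genes between odd and even numbers, with 368 at an unadjusted p-value under 0.05. Of the 53 genes, 43 had the same sign there. The share of all genes with the same sign was not computed, so this count is not read as a repeat of the split. *mt-Nd4* differed by 0.12 ± 0.090, *Bin2* by 0.30 ± 0.14 and *Adam9* by -0.18 ± 0.14 (SE, limma adjusted p = 0.9998 for each). A test of whether the odd-even difference itself differed between the 2 sets called 0 genes, with 531 at an unadjusted p-value under 0.05.

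**Figure D5:**
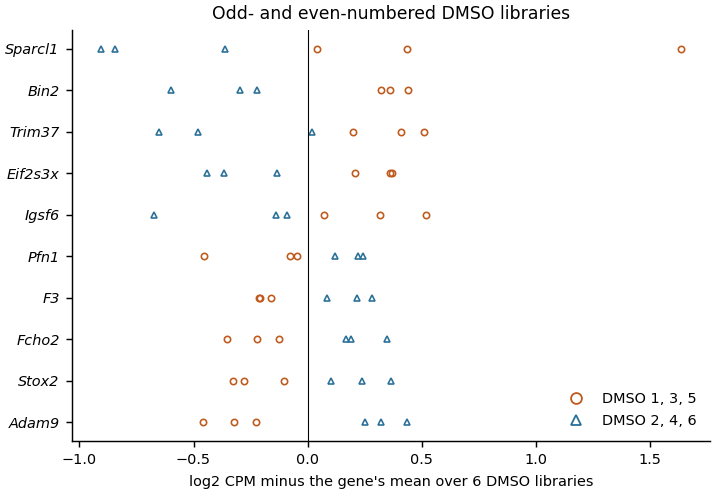
Level of the 5 genes most raised and the 5 most lowered in odd-numbered DMSO libraries among those past the threshold, as log2 CPM minus the gene's mean (horizontal axis). Circles are libraries 1, 3 and 5 and triangles libraries 2, 4 and 6. Circles and triangles do not overlap for any gene, and Sparcl1 spreads most.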

How the data were processed

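QuantSeq 3′ mRNA libraries were made from 75 ng of RNA. Per the submitters' notes and the study's methods, the authors aligned reads to GRCm38 with STAR 2.5.3, counted them per gene with HTSeq 0.6.1, required a minimum of 30 reads in 6 samples or more, dropped genes without annotation and scaled libraries by TMM. The deposited values are log2 CPM with a prior count. Undoing the logarithm gave equal steps above a common offset of 0.289 CPM, and for 100% of values below 200 reads the step count was whole within a tolerance of 0.02, so whole reads were recovered. Interval and chi-square statements cover counting error only.

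Genes were ranked by their mean over the 6 DMSO libraries. Odd- and even-numbered libraries were compared with limma 3.58.1 in R 4.3.3 (lmFit, eBayes with trend, two-sided, Benjamini-Hochberg over 10697 genes). All adjusted p-values are from limma. The procedures were tested on simulated reads. For limma every simulated gene had the same spread beyond counting, whereas the measured spread fell with level. That simulation therefore cannot show how the trend of variance with level acts in these data. The named genes are the 30 highest, all fibroblast and macrophage markers with values for the 6 highest and the lowest, up to 5 members of every other list, the 10 largest and smallest SDs, up to 5 genes per direction between odd and even libraries, and all listed pairs. *mt-Nd4*, *Arpc1b* and group members as odd-even genes, and the other list members with values, were added after values were seen. Members, lists and tests were chosen with earlier results of these data known. Of the table's genes, 10424 (97.45%) matched GENCODE vM21 by symbol. Renamed symbols of the lists were set to those of the table after the table was seen. A few genes that this rule names are not reported here.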

Additional observations from a re-analysis of the deposited data

Results flagged for a closer look

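For each quantity, the distance of the highest or lowest DMSO library from the next one, as a share of the range over 6 libraries, was set against Dixon's 95% critical value. This was done for 140 quantities: the read total, shares of the most abundant genes, list means, the 30 most abundant genes and the fibroblast and macrophage markers. Of these 5 passed, where chance gives about 1 in 20, or 7.0. *Lyz2* stood at 13.72 in library 1, against 13.60 in the next, and *C1qb* at 10.24 in the same library, against 10.07 in the next. *Fcgr3* was at 7.74 in library 4, against 7.99 in the next. The mean of the cytosolic chaperones was 7.44 in library 3, against 7.32 in the next, and that of the AP-1 and immediate early genes 6.10 in library 2, against 6.03 in the next. The flags fell on 4 different libraries.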

How the results depend on the processing

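The share of reads in the 100 most abundant genes moved by less than its SD under every alternative run and was 28.3% to 28.5% with 1 library left out. At least 29 of the 30 most abundant genes were the same under each. With missing markers set at the lowest value of the table the fibroblast mean was 7.28 and the macrophage mean 7.83. These means were 8.01 to 8.03 and 8.13 to 8.15 with a library left out. The relation of the 2 programs had r of -0.937 to 0.0745 with a library left out (0.0745 without library 5), 0.745 without the 2 farthest libraries, -0.874 with libraries centred on their medians (exact permutation p = 0.05) and -0.541 after quantile normalization. Genes varying beyond counting error numbered 4555 of the 5390 with a mean of at least 5, since fewer genes were tested, 8327 after thinning to the lowest total, 8725 with plain totals and 7658 to 8143 with a library left out. Genes past the threshold between odd and even libraries numbered 0 in limma without the trend (838 at an unadjusted p under 0.05), 91 among genes with a mean of at least 5, 5 with all 12 libraries and the treatment as a term, 78 with voom, 39 after quantile normalization, 56 and 75 with pseudocounts of 0.5 and 10, and 24 to 107 with a library left out. Of the 53 genes, 53 were among the 78 of voom, 4 among the 5, 49 among the 91 and 35 among the 39. Where not stated, the cause was not tested. Of 128 alternative values of the 10 named odd-even genes, 82 passed in the same direction, 46 had the same direction without passing and 0 reversed. No paired analysis was possible because no treated group was compared with the vehicle group, and the replicate number itself defines the odd and even sets, in the thymol libraries and in the fit over 12 libraries too, so that a block on it would take up the difference tested. The call of *mt-Nd4*, which is not among the 10 genes, ended after quantile normalization (which fixes the value of the first-ranked gene), without the trend (0.34) and with all 12 libraries (0.23). Depth limits genes under 2 log2 CPM, with a median of 25.8 reads, most.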
